A study of Arabidopsis thaliana with 12 samples.

Results

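The response of Arabidopsis seedlings to 1 h of the bacterial peptide flg22 in air was examined by RNA sequencing. The comparison used 6 of the 12 samples of the series, chosen by their labels: 3 normoxia/flg22 samples (NF) and 3 normoxia/mock samples (NM). All seedlings were of the wild-type accession Col-0, 10 days old and raised on 0.5xMS agar in continuous light at 20 °C, with the last night in liquid medium, and each sample pooled 5 whole seedlings. NF seedlings received 100 nM flg22 and NM seedlings an equivalent volume of water, both at ambient oxygen. The other 6 samples had the same treatments in hypoxia, as hypoxia/flg22 (HF) and hypoxia/mock (HM), and entered the statistical fit. The study describes the samples of a group as biological replicates, and the replicate number links an NF with an NM sample.

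Flg22 is a fragment of flagellin, the protein of the bacterial flagellum. It binds the receptor kinase FLS2, which then pairs with the co-receptor BAK1 and passes the signal to cytoplasmic kinases such as BIK1, to the NADPH oxidase RBOHD, to calcium channels and to mitogen-activated protein kinase (MAPK) cascades. This programme, pattern-triggered immunity (PTI), is known for early transcription of WRKY and ERF transcription factors, of further receptor kinases and of enzymes that make antimicrobial compounds, and for reduced growth.

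Total counts were between 21442523 and 21554050 in the 6 NF and NM samples, so depth differed little, while TMM normalization factors ran from 0.902 to 1.23. All 5 shoot markers (Rubisco small subunit, Rubisco activase and antenna genes) were detected and summed to 33226 to 44916 CPM (counts per 1000000 normalized counts) in NF, against 36926 to 43240 CPM in NM. All 5 root markers were detected too, at 25.3 to 84.6 CPM in NF and 14.7 to 102.6 CPM in NM. Between NF and NM samples of the same number, their median log2 CPM difference was -0.26, 1.18 and 0.05 for replicates 1, 2 and 3. Over all genes it was 0.01, -0.04 and -0.05. Whether root content bears on other differences was not tested. The 6 seed and flower markers that were in the table reached only 0.905 to 2.63 CPM in NF and 1.77 to 6.97 CPM in NM. Since RNA came from whole seedlings, a lower value can stand for less RNA per cell or for fewer cells of a type, and these cannot be told apart.

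Transcription was changed mainly upwards. Of 20074 genes tested, 2315 were DEGs in NF vs NM (11.5%), with 1823 upregulated (9.08%) and 492 downregulated (2.45%) at an adjusted p under 0.05 and a change of more than 1.5-fold (edgeR's quasi-likelihood test, blocked by replicate number). The upregulated DEGs had a median log2(FC) of 1.97, and 514 of them rose more than 8-fold, whereas the downregulated DEGs had a median of -0.94 and only 3 fell more than 8-fold. In each DEG, the 3 same-numbered pairs agreed in direction, which a call blocked by replicate number favours. Of all tested genes, 25.2% were higher and 28.9% lower in NF in all 3 pairs. The samples did not overlap for 1668 of the upregulated and 349 of the downregulated DEGs. The DEGs were called from these same samples, which favours separation, and no share over all genes was taken. The upregulated DEGs together took 14.5 to 24.5% of all normalized counts in NF and 4.04 to 5.07% in NM.

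The number of downregulated DEGs depended on how the samples were fitted. Without the replicate block there were 1291 upregulated and 128 downregulated DEGs. Scaling by library size alone gave 1668 upregulated and 1334 downregulated DEGs, which lowered the upregulated share to 55.6% of DEGs, against 78.7% with TMM, and shifted the median log2(FC) of all genes by -0.15. The downregulated number was 86 without NF replicate 2, 266 without NF replicate 3, 103 without NM replicate 2 and 172 without NM replicate 3, while the upregulated number was 1245 without NF replicate 2 and 1210 without NM replicate 2. Pair 2 carried the largest differences: the upregulated DEGs had a median difference of 1.44 in pair 1, 2.31 in pair 2 and 1.98 in pair 3 on the log2 CPM scale, and 1227 of them differed most in pair 2.

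**Figure D1:**
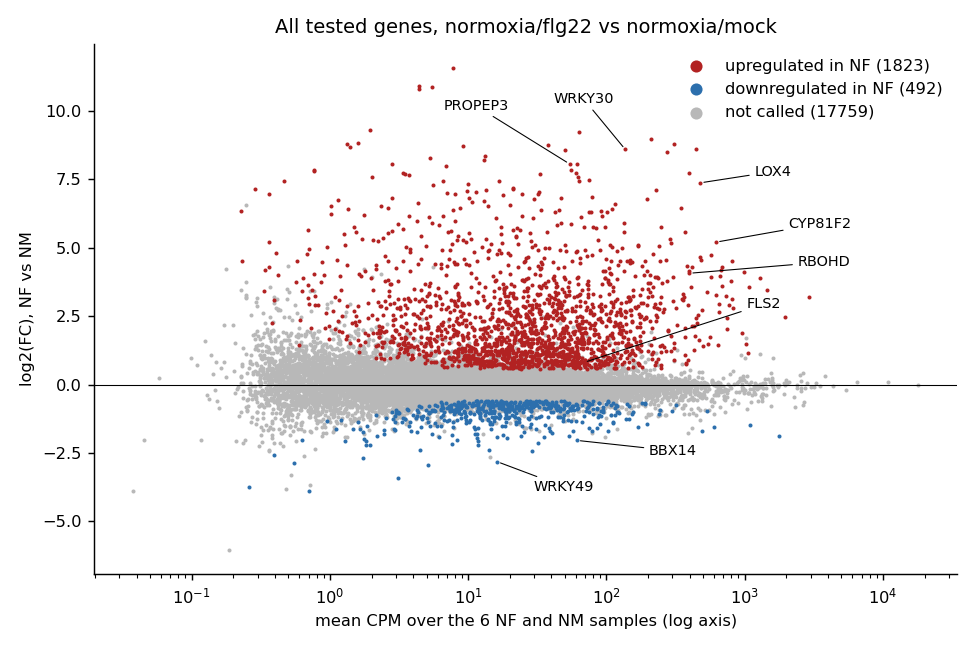
Log2(FC) in NF vs NM against mean CPM over the 6 NF and NM samples (log axis), with 1 point per tested gene. Red marks the 1823 upregulated DEGs, blue the 492 downregulated DEGs and grey the genes not called. The fitted log2(FC) of the 14 upregulated DEGs with no NM count depends on the prior count.

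Of the genes of the flagellin receptor complex, the co-receptor BAK1 and the kinase BIK1 rose, whereas the receptor gene itself did not pass the test. FLS2 (AT5G46330), the flg22 receptor, had 82.4, 99.0 and 79.3 CPM in NF, against 63.0, 38.6 and 49.5 CPM in NM. Every NF sample was above every NM sample. Still, FLS2 had an adjusted p of 0.054 (log2(FC) 0.81, SE 0.24, derived from the F statistic like every SE below). It passed with DESeq2 on all samples (adjusted p = 0.0191) and without NM replicate 1 (log2(FC) 1.02, adjusted p = 0.0409). BAK1 (AT4G33430), the co-receptor, had 198, 341 and 280 CPM in NF and 68.9, 76.1 and 93.8 CPM in NM, with no overlap and a log2(FC) of 1.76 (SE 0.23, adjusted p = 0.00212). BIK1 (AT2G39660), the kinase that links the receptor complex to RBOHD, had 101, 263 and 233 CPM in NF, against 29.0, 59.0 and 61.3 CPM in NM (log2(FC) 1.98, SE 0.34, adjusted p = 0.00493). NF replicate 1 was the lowest of the NF samples for both kinases.

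Of 23 receptors and receptor-proximal components listed, 17 were upregulated (73.9%, against 9.08% of all genes). The median log2(FC) was 1.92 over the list, against -0.02 over all genes. The steepest rises were those of the LysM receptor kinases that perceive chitin, LYK5 with a log2(FC) of 3.90 (SE 0.43, adjusted p = 0.00156) and LYK4 with 3.38 (SE 0.50, adjusted p = 0.00278). LYK5 had 67.4, 58.3 and 105 CPM in NF and only 6.60, 4.04 and 5.26 CPM in NM. SOBIR1, an adaptor kinase for receptor-like proteins, had 381, 758 and 816 CPM in NF and 72.0, 62.5 and 84.6 CPM in NM (log2(FC) 3.19, SE 0.48, adjusted p = 0.00288). CERK1, the chitin co-receptor, and PEPR1, the receptor of plant elicitor peptides, rose by 2.34 and 2.58 on the log2 scale. The 6 listed genes that did not pass included FER, the RALF receptor (log2(FC) 0.05), and BSK1, a kinase that associates with FLS2 (log2(FC) -0.09). EFR, the receptor of the bacterial elongation factor peptide elf18, rose by 1.64 (adjusted p = 0.00257), but not without the replicate block (adjusted p = 0.0584).

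**Figure D2:**
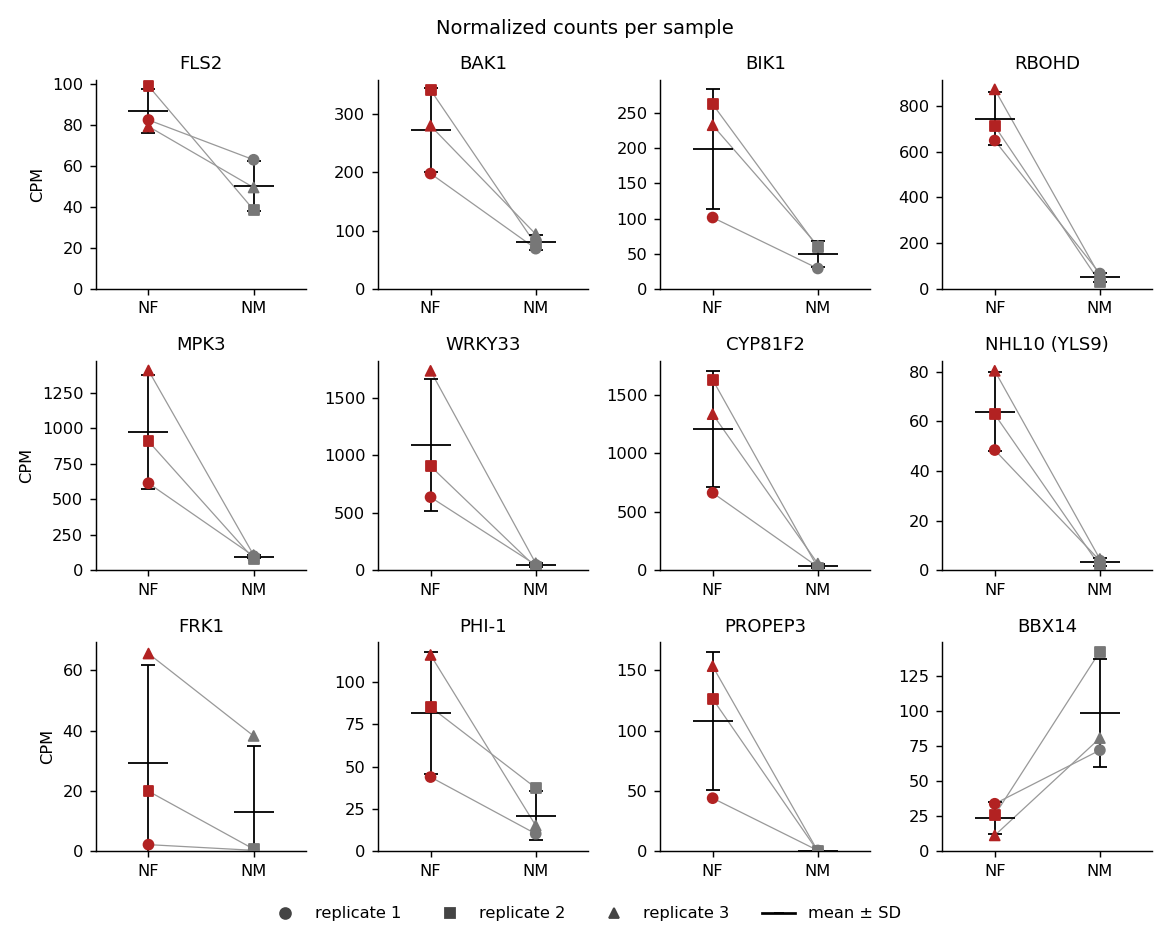
CPM of 12 genes in each NF sample (left, red) and NM sample (right, grey), with grey lines joining samples of the same replicate number and black bars for the mean ± SD (n = 3). The groups separate for every gene shown except FRK1, where NM replicate 3 lies above NF replicates 1 and 2.

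Genes of the calcium and reactive oxygen machinery and of the MAPK cascade also rose. RBOHD (AT5G47910), the oxidase that makes the PTI oxidative burst, had 649, 712 and 873 CPM in NF, against 66.8, 28.6 and 55.3 CPM in NM. All NF samples lay far above all NM samples, with a log2(FC) of 4.07 (SE 0.70, adjusted p = 0.00471). Of 25 calcium and ROS genes tested, 17 were upregulated and 1 was downregulated, with a median log2(FC) of 2.06. The shares were 68% and 4%, against 9.08% and 2.45% of all genes. The calmodulin-like proteins CML37 and CML42 rose by 5.96 (SE 0.89) and 4.75 (SE 0.69) on the log2 scale, and the channel gene CNGC19 by 4.92 (SE 0.75), at adjusted p of 0.00288, 0.00276 and 0.00302. CML42 had 104, 176 and 168 CPM in NF and 10.2, 3.48 and 5.65 CPM in NM. Calcium-dependent protein kinases rose too, with a log2(FC) of 3.89 for CPK28, which limits BIK1 accumulation, and of 1.15 for CPK5, which phosphorylates RBOHD. The gene that fell was DND1, a cyclic nucleotide-gated channel, with 34.9, 77.9 and 69.3 CPM in NF and 67.1, 186 and 116 CPM in NM (log2(FC) -0.98, SE 0.18, adjusted p = 0.00629). Its groups overlapped, and the fit without the replicate block gave an adjusted p of 0.334.

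In the MAPK cascade, 9 of 17 genes were upregulated (52.9%, against 9.08% of all genes). MPK3 (AT3G45640) had 612, 907 and 1405 CPM in NF, against 99.0, 80.5 and 106 CPM in NM (log2(FC) 3.38, SE 0.51, adjusted p = 0.00288). MPK11 had 45.0, 113 and 166 CPM in NF and 1.92, 1.11 and 2.803 CPM in NM, a log2(FC) of 5.87 (SE 1.08, adjusted p = 0.00628). The other flg22-activated kinases MPK6 and MPK4 did not pass, with a log2(FC) of 0.15 (SE 0.10) and 0.43 (SE 0.14), and their groups overlapped. Upstream, MKK4 rose by 3.13 (SE 0.34) and its paralogue MKK5 by 0.85 (SE 0.17) on the log2 scale, and MEKK1, the kinase at the head of a parallel cascade, by 1.62 (SE 0.24). The phosphatase MKP1, which inactivates these kinases, rose by 0.71. The differences between members of the cascade were not tested.

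Among 8 genes commonly used as markers of early PTI, 7 were upregulated (87.5%, against 9.08% of all genes), and 5 without the replicate block. CYP81F2 (AT5G57220), an enzyme of indole glucosinolate modification, had 661, 1629 and 1334 CPM in NF and 27.6, 20.9 and 55.9 CPM in NM (log2(FC) 5.21, SE 0.87, adjusted p = 0.00417). NHL10 (AT2G35980, annotated as YLS9) had 48.4, 62.8 and 80.3 CPM in NF, against 3.85, 1.63 and 4.48 CPM in NM, a 19.4-fold difference (log2(FC) 4.28, SE 0.34, adjusted p = 0.000554). MLO6, a membrane protein of a family that affects powdery mildew entry, rose by 5.91 (SE 0.76, adjusted p = 0.00212), and its relatives MLO12 and MLO2 by 3.12 and 2.56 on the log2 scale. PHI-1 (AT1G35140) had 43.8, 85.0 and 116 CPM in NF and 10.4, 37.4 and 15.3 CPM in NM and passed narrowly (log2(FC) 2.05, SE 0.59, adjusted p = 0.0494, and 0.0694 without the replicate block). FRK1 (AT2G19190), the flg22-induced receptor kinase that often serves as the readout of this pathway, was the exception. It had 2.26, 19.9 and 65.5 CPM in NF, against 0.377, 0.790 and 38.2 CPM in NM. FRK1 was higher in NF in all 3 pairs, but NM replicate 3 exceeded NF replicates 1 and 2, and the call failed (log2(FC) 2.16, SE 1.03, adjusted p = 0.223).

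Precursors of plant elicitor peptides, which amplify PTI through PEPR1 and PEPR2, were strongly upregulated. PROPEP3 (AT5G64905) had 44.1, 126 and 153 CPM in NF and 0.830, 0.0929 and 0.302 CPM in NM (log2(FC) 8.06, SE 1.01, adjusted p = 0.00192). PROPEP2 rose by 5.68 on the log2 scale and PROPEP1 rose as well (adjusted p = 0.00647), and both were between 0 and 0.905 CPM in NM. RALF23, a peptide that dampens immune receptor complexes through FER, fell instead, with 19.3, 32.0 and 24.7 CPM in NF, against 34.7, 63.5 and 44.3 CPM in NM (log2(FC) -0.89, SE 0.19, adjusted p = 0.0147). It was not called without the replicate block (adjusted p = 0.12), without NF replicate 1 or 2, or without NM replicate 2 or 3.

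WRKY transcription factors, which bind the W-box in defence promoters, rose in many members. Of 59 members tested, 25 were upregulated and 2 downregulated, and 14 and 1 without the replicate block. With the block the shares were 42.4% and 3.39%, against 9.08% and 2.45% of all genes. The downregulated share was thus close to that of all genes. WRKY33 (AT2G38470), a regulator of camalexin synthesis and a MAPK substrate, had 635, 905 and 1735 CPM in NF, against 46.1, 26.3 and 60.02 CPM in NM (log2(FC) 4.73, SE 0.75, adjusted p = 0.00352). WRKY30 had 190, 264 and 365 CPM in NF and 0.339, 0.464 and 1.42 CPM in NM, a log2(FC) of 8.60 (SE 1.08, adjusted p = 0.00195). WRKY41 and WRKY46 rose by 6.97 and 5.15, WRKY40 and WRKY53 by 4.52 and 3.62 and WRKY22 and WRKY29, which act downstream of the flg22 MAPK cascade, by 2.34 and 2.06 on the log2 scale. WRKY49 went the other way, with 0.535, 3.66 and 7.28 CPM in NF and 3.02, 46.1 and 36.5 CPM in NM (log2(FC) -2.82, SE 0.47, adjusted p = 0.00412). WRKY49 was low in both samples of replicate 1, so that the groups overlapped, and the fit without the block gave an adjusted p of 0.282. WRKY3 also fell (log2(FC) -1.19, adjusted p = 0.0172).

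**Figure D3:**
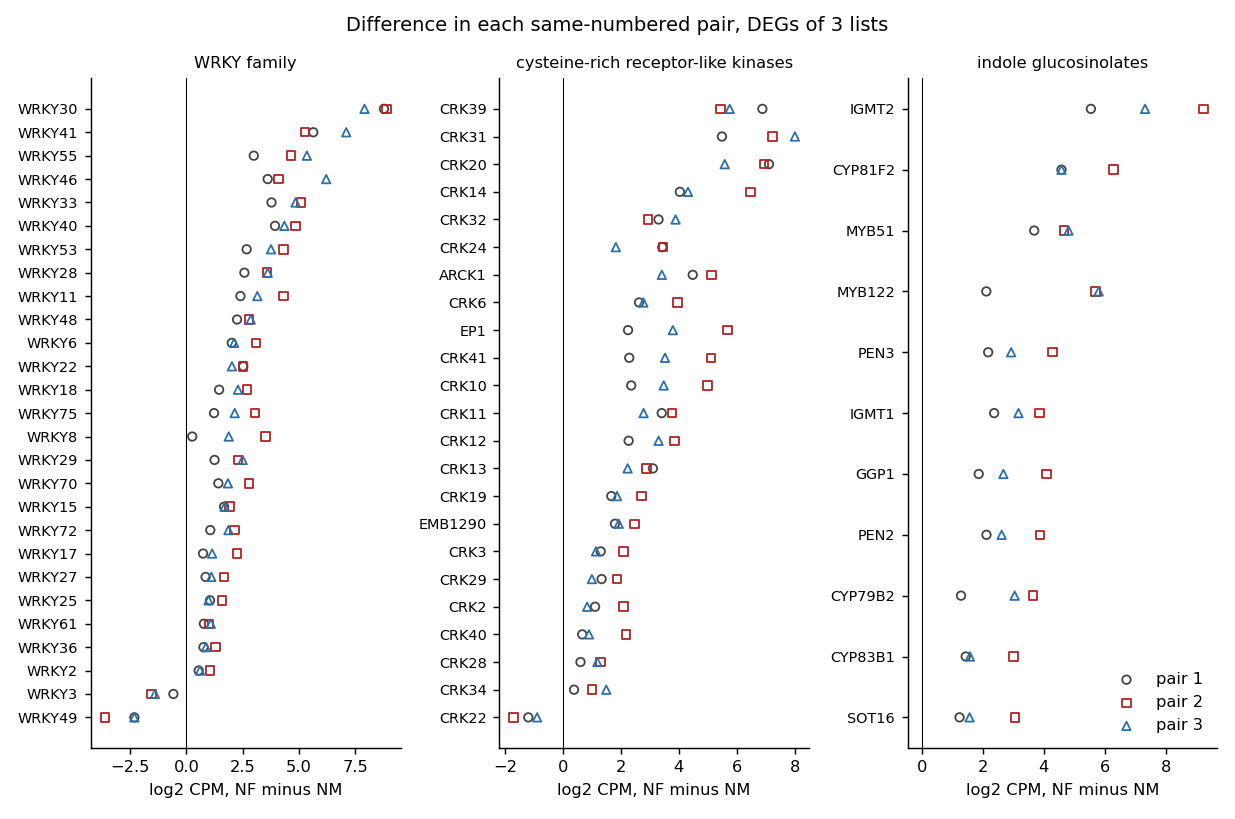
Difference in log2 CPM between the NF and the NM sample of pairs 1 (circles), 2 (squares) and 3 (triangles), for the DEGs of the WRKY, cysteine-rich receptor-like kinase and indole glucosinolate lists. All 3 pairs lie on the same side of 0 for each gene, and pair 2 is the largest for most glucosinolate genes, 9.22 for IGMT2.

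ERF transcription factors of the defence group were upregulated in 11 of 14 cases (78.6%, against 9.08% of all genes), with a median log2(FC) of 2.73. The largest rise was that of TDR1 (AT3G23230), with 39.4, 68.0 and 87.4 CPM in NF, against 0.415, 0.975 and 0.259 CPM in NM (log2(FC) 7.04, SE 1.03, adjusted p = 0.00278). ERF6, a MAPK substrate, had 253, 338 and 529 CPM in NF and 26.5, 18.2 and 23.2 CPM in NM (log2(FC) 4.14, SE 0.60, adjusted p = 0.00276). ERF105 (AT5G51190) rose by 4.91 (SE 0.80, adjusted p = 0.00389), whereas ERF104, another MPK6 substrate, had a log2(FC) of -0.16 (SE 0.44) and did not pass. Without NF replicate 2 or 3, or NM replicate 1 or 2, only 7 of these factors were called. Other stress regulators rose in 10 of 17 cases (58.8%, against 9.08% of all genes). They were led by the zinc finger protein ZAT11 (log2(FC) 7.59, SE 1.14, adjusted p = 0.00294) and NAC042 (6.68, SE 0.96, adjusted p = 0.00272). MYB15, an activator of lignin synthesis genes, followed (5.65, SE 0.63, adjusted p = 0.00156). ZAT11 had 104, 71.7 and 197 CPM in NF and 1.32, 0.186 and 0.949 CPM in NM.

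The promoters of these genes were read from the RefSeq genome TAIR10.1 as 250 bases before the annotated gene start. The 5 shown are those of 4 strongly upregulated genes and of 1 downregulated gene, with every match to the W-box core TTGAC on either strand in capitals (GTCAA is the same core on the other strand). They lie at chr2:16107985-16108234 for WRKY33 on the plus strand, chr5:8154711-8154960 for WRKY30 on the minus strand, chr5:25939312-25939561 for PROPEP3 on the plus strand, chr4:15454833-15455082 for CYP82C3 on the plus strand and chr1:25710990-25711239 for BBX14 on the minus strand. None of these windows overlaps another annotated gene.
WRKY33: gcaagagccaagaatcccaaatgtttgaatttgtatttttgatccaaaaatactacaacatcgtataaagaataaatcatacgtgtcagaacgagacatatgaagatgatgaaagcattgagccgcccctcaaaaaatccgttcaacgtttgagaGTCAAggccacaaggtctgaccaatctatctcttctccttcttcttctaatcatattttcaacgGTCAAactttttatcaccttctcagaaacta
WRKY30: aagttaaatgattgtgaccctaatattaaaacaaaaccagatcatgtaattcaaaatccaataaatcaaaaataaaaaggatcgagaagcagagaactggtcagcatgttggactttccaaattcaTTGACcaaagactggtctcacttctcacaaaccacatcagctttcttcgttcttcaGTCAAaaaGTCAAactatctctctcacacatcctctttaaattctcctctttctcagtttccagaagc
PROPEP3: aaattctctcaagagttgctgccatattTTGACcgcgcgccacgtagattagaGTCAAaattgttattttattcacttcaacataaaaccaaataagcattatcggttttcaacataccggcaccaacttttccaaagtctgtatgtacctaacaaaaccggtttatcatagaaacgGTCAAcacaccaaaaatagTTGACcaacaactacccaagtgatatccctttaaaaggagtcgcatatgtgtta
CYP82C3: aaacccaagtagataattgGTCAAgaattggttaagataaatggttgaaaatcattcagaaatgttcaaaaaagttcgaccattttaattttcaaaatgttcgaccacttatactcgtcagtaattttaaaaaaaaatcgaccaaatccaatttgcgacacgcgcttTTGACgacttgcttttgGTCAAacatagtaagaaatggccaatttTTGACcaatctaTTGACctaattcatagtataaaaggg
BBX14: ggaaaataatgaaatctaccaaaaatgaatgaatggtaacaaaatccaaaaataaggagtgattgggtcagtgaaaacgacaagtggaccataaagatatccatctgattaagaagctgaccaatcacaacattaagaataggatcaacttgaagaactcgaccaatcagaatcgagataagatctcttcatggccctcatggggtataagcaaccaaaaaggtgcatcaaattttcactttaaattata
WRKY33 has 2 matches, WRKY30 has 3, PROPEP3 has 4 and CYP82C3 has 5, while BBX14 has none in these letters. They are examples and were chosen after their values were seen.

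Over all genes, matches were counted from 250 bases before to 50 bases after the start, on both strands, in 20070 promoters. TTGAC was present in 72.3% of 1822 promoters of upregulated DEGs and in 45.5% of 492 promoters of downregulated DEGs, against 51.5% of all tested promoters. The longer forms TTGACC or TTGACT, which are contained in the core count, were present in 57.3%, 24.8% and 33.2% of the same promoters. With at least 2 matches to TTGAC, the shares were 38.6%, 13.8% and 18.6%. CGCGTT, the rapid stress response element bound by CAMTA factors, was in 8.62% of promoters of upregulated DEGs, 1.83% of those of downregulated DEGs and 3.78% of all. The GCC box (GCCGCC) was in 3.35%, 2.44% and 2.63%, the G-box (CACGTG) in 7.79%, 7.52% and 8.69%, the auxin response element (TGTCTC) in 13.1%, 9.96% and 13.7%, and the evening element (AAATATCT) in 5.93%, 4.27% and 5.90%. Median GC content was 31.3% in promoters of upregulated DEGs, 31.0% in those of downregulated DEGs and 32.0% in all. These shares are descriptions of letters and were not tested.

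**Figure D4:**
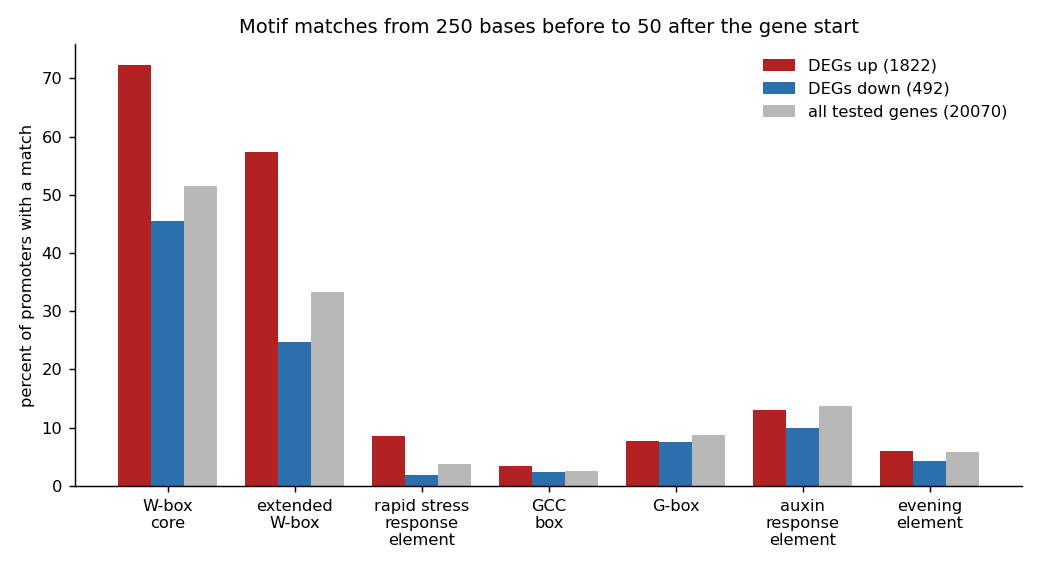
Percent of promoters (250 bases before to 50 after the gene start) with at least 1 match to each motif on either strand, for upregulated DEGs (red), downregulated DEGs (blue) and all tested genes (grey). The W-box core is present in 72.3%, 45.5% and 51.5% of these promoters.

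Many members of the cysteine-rich and wall-associated receptor-like kinase families rose. Of 36 cysteine-rich receptor-like kinases tested, 22 were upregulated and 1 was downregulated, with a median log2(FC) of 1.68. The shares were 61.1% and 2.78%, against 9.08% and 2.45% of all genes. The count of upregulated members was 13 without NM replicate 2. CRK31 had 34.6, 34.8 and 57.2 CPM in NF, against 0.679, 0.139 and 0.129 CPM in NM (log2(FC) 7.19, SE 0.80, adjusted p = 0.00156). CRK39 and CRK20 rose by 7.31 (SE 1.26) and 6.55 (SE 0.80) on the log2 scale. Many of these genes stand in tandem arrays of similar sequence, so that reads shared between copies could have been assigned to a neighbour. CRK22 had 5.63, 11.3 and 32.7 CPM in NF and 13.1, 37.4 and 60.9 CPM in NM, overlapping groups with a log2(FC) of -1.24 (adjusted p = 0.0226, and 0.596 without the block). Among 11 wall-associated kinases, which sense cell wall fragments, 6 were upregulated (54.5%, against 9.08% of all genes). WAKL10 had 50.01, 162 and 166 CPM in NF and 0.566, 0.325 and 1.38 CPM in NM (log2(FC) 7.45, SE 1.06, adjusted p = 0.00264).

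Many genes for tryptophan-derived defence compounds rose, from tryptophan synthesis to export. Of 15 genes of indole glucosinolate synthesis, breakdown and transport, 11 were upregulated (73.3%, against 9.08% of all genes), with a median log2(FC) of 2.93. MYB51, the main flg22-responsive activator of the pathway, had 238, 333 and 514 CPM in NF, against 18.4, 13.1 and 18.3 CPM in NM (log2(FC) 4.51, SE 0.64, adjusted p = 0.00265). MYB34, another activator of the same enzymes, had overlapping groups and a log2(FC) of -0.18. CYP79B2 and CYP83B1, which convert tryptophan towards the glucosinolate core, rose by 2.78 and 2.08 on the log2 scale. IGMT2, which methylates the CYP81F2 product, had 413, 1054 and 885 CPM in NF and 8.79, 1.67 and 5.48 CPM in NM (log2(FC) 7.72, SE 1.52, adjusted p = 0.00897), and was not called without NM replicate 2. Its similar neighbour IGMT1 rose by 3.19, and reads of these copies may have been shared. PEN2, the myrosinase that activates these compounds at the site of attack, and PEN3, the exporter, rose by 2.93 and 3.20. PEN3 reached 3590 to 6416 CPM in NF, against 330 to 796 CPM in NM.

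Tryptophan synthesis and camalexin genes were upregulated in 6 of 9 cases (66.7%, against 9.08% of all genes). ASB1, a subunit of anthranilate synthase at the entry to tryptophan, had 102, 213 and 145 CPM in NF and 27.5, 15.1 and 24.1 CPM in NM (log2(FC) 2.88, SE 0.47, adjusted p = 0.00387), and ASA1, TSA1 and TSB1 rose by 1.85, 1.24 and 2.16 on the log2 scale. CYP71A12 had 31.2, 55.6 and 42.4 CPM in NF and 1.28, 0.232 and 1.81 CPM in NM (log2(FC) 5.39, SE 0.75, adjusted p = 0.00257). Its neighbour CYP71A13, the main camalexin enzyme of this pair, stayed at or below 0.411 CPM in NF and 0.415 CPM in NM, and the counts of such similar genes are uncertain. PAD3, the last camalexin enzyme, had 13.8, 14.1 and 7.67 CPM in NF, against 1.92, 0.325 and 0.517 CPM in NM (log2(FC) 4.26, SE 0.97, adjusted p = 0.0186), and was not called without the block (adjusted p = 0.134), without NF replicate 2 or without any of the NM samples in turn.

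Of 16 phenylpropanoid genes, 4 were upregulated, a share of 25%, against 9.08% of all genes. The number was 1 when NF replicate 2 or 3 or NM replicate 2 or 3 was left out. CCR2, a cinnamoyl-CoA reductase induced in defence, had 99.7, 189 and 220 CPM in NF and 6.19, 2.83 and 5.61 CPM in NM (log2(FC) 5.29, SE 0.72, adjusted p = 0.0024). CCR1, the developmental form, had a log2(FC) of 0.07. PAL1 and 4CL1, early enzymes of the pathway, rose by 1.22 and 1.14 with adjusted p of 0.0388 and 0.0218, but not without the block (adjusted p of 0.344 and 0.107). PAL1 was at 276, 254 and 263 CPM in NF, whereas it varied more in NM, with 197, 52.6 and 145 CPM in the 3 NM samples. Glutathione S-transferases, detoxifying enzymes, were upregulated in 9 of 38 cases (23.7%, against 9.08% of all genes). GSTU12 had 63.2, 150 and 148 CPM in NF, against 0.302, 0.0929 and 1.55 CPM in NM (log2(FC) 7.75, SE 1.52, adjusted p = 0.00859), and lost its call without NM replicate 2. GSTF6 had 480, 1536 and 1159 CPM in NF and 31.6, 42.8 and 161 CPM in NM (log2(FC) 3.92, SE 0.69, adjusted p = 0.00535), and its similar neighbour GSTF7 rose by 3.58, so that reads of these copies may have been shared.

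Hormone genes responded unevenly. Of 16 salicylic acid genes tested, 9 were upregulated (56.25%, against 9.08% of all genes), most of them regulators and signalling components. CBP60G, an activator of salicylic acid synthesis, had 65.4, 101 and 179 CPM in NF and 5.05, 6.18 and 11.8 CPM in NM (log2(FC) 3.91, SE 0.40, adjusted p = 0.00144). SARD1, its relative, had 44.9, 11.0 and 28.5 CPM in NF, against 4.53, 0.511 and 1.38 CPM in NM (log2(FC) 3.98, SE 0.55, adjusted p = 0.00251, and 0.079 without the block). EDS1, PAD4 and NPR1, signalling components, rose by 2.12, 2.50 and 1.55 on the log2 scale. EDS5, the transporter of the salicylic acid precursor, rose by 2.99 (SE 0.64, adjusted p = 0.0132, and 0.0658 without the block). The synthesis enzyme EDS16 (isochorismate synthase) had 21.2, 14.3 and 14.1 CPM in NF, against 14.6, 9.29 and 12.7 CPM in NM, and did not pass (log2(FC) 0.44, adjusted p = 0.234). The late marker PR5 did not pass either (log2(FC) 0.36, adjusted p = 0.455).

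Among 22 jasmonate genes, 7 were upregulated (31.8%, against 9.08% of all genes). LOX4 had 731, 841 and 1267 CPM in NF and 14.4, 3.02 and 7.46 CPM in NM (log2(FC) 7.38, SE 1.13, adjusted p = 0.0031), and LOX3, its close relative, rose by 4.56 (SE 0.90, adjusted p = 0.00877). LOX2, another lipoxygenase of jasmonate synthesis, had overlapping groups, with 488, 162 and 206 CPM in NF and 357, 205 and 250 CPM in NM (log2(FC) -0.09). Of the JAZ repressors, JAZ5 and JAZ1 rose by 3.81 and 3.04 on the log2 scale. The number of upregulated jasmonate genes was 3 without NM replicate 2 and 4 without NF replicate 2, NF replicate 3 or NM replicate 1. In ethylene synthesis and signalling, 2 of 13 genes were upregulated (15.4%, against 9.08% of all genes), both of them ACC synthases. The median log2(FC) of this list was 0.08, and 1 gene was called without the block. ACS6, a MAPK substrate, had 38.3, 46.6 and 94.0 CPM in NF, against 5.81, 2.97 and 6.34 CPM in NM (log2(FC) 3.60, SE 0.58, adjusted p = 0.00358). ACS7 rose by 2.32 (SE 0.58, adjusted p = 0.0278, and 0.258 without the block) with overlapping groups.

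Most genes of the auxin-responsive families were not called. The Aux/IAA list was matched by symbol and synonym and also holds MP, NPH4 and ARF19, which are auxin response factors. Of its 25 genes tested, only IAA10 (log2(FC) 2.64, SE 0.40, adjusted p = 0.00302) and IAA2 (1.60, SE 0.22, adjusted p = 0.0025) were upregulated, a share of 8% that was close to the 9.08% of all genes. IAA2 had 96.3, 165 and 120 CPM in NF and 43.7, 35.2 and 45.1 CPM in NM. BRU6 (AT4G37390), a GH3 enzyme that conjugates auxin, had 73.2, 79.6 and 75.0 CPM in NF, against 10.4, 7.34 and 8.80 CPM in NM (log2(FC) 3.14, SE 0.23, adjusted p = 0.000429). The BRU6 samples lay close together, with SDs of 3.32 CPM in NF and 1.54 CPM in NM (n = 3 each). GH3.3 and GH3.9 were also called, but not without the block (adjusted p of 0.0614 and 0.0882). Of 53 genes with a SAUR symbol or annotation, 4 were upregulated (7.55%) and 2 downregulated (3.77%), with a median log2(FC) of -0.37. The shares over all genes were 9.08% and 2.45%. Of those 4, SAUR21 (AT5G01830, log2(FC) 3.90) is annotated as an ARM repeat protein and not as a SAUR-like protein. AT2G21210, a SAUR-like gene, had 4.24, 6.13 and 3.25 CPM in NF and 21.1, 26.1 and 24.1 CPM in NM (log2(FC) -2.41, SE 0.31, adjusted p = 0.00212).

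Secretion and protein turnover genes rose in most cases. Of 9 genes for callose and secretion, 7 were upregulated (77.8%, against 9.08% of all genes). The syntaxins SYP121 and SYP122, which drive vesicle fusion at the plasma membrane, both rose. SYP121 had 262, 493 and 444 CPM in NF, against 46.0, 27.0 and 35.1 CPM in NM, and SYP122 had 239, 392 and 418 CPM in NF, against 29.2, 12.9 and 28.1 CPM in NM. The log2(FC) was 3.55 for SYP121 (SE 0.52) and 4.02 for SYP122 (SE 0.59), and the exocyst subunit EXO70B2 rose by 4.16 (SE 0.61, adjusted p = 0.00282). GSL05, the callose synthase of the flg22 response, rose only by 0.71 (adjusted p = 0.0422, and 0.164 without the block). Of 11 ubiquitin ligases, 8 were upregulated (72.7%, against 9.08% of all genes). PUB23 had 309, 716 and 687 CPM in NF and 25.4, 10.3 and 18.6 CPM in NM (log2(FC) 5.19, SE 0.76, adjusted p = 0.00278), and PUB24 and PUB22, with which it acts as a negative regulator of PTI, rose by 4.90 and 2.83. CNI1 (ATL31) rose by 5.10 (SE 0.68, adjusted p = 0.00229). PUB13, which marks FLS2 for degradation, had a log2(FC) of 0.20 and did not pass, whereas PUB12 rose by 2.22.

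The largest rises were those of genes that were nearly silent in NM. AT4G18540, an uncharacterized protein, had 21.3, 2.73 and 22.4 CPM in NF and no count in any NM sample, so that it was at least 367-fold higher in NF (3 counts over the NM group as the floor). AT3G43250, a coiled-coil protein, had 7.07, 12.3 and 13.3 CPM in NF and no NM count, at least 259-fold higher. AT4G04480 and AT4G22030, both annotated as F-box proteins, and BGLU27, a beta glucosidase, had 1 count each over the NM group. Their ratio of mean CPM was 1907 (95% exact Poisson interval of the NM count 342 to 75323), 1488 (267 to 58779) and 1615 (290 to 63790), intervals that cover counting error only. The cytochrome P450 gene CYP82C3 had 57.8, 165 and 158 CPM in NF, against 0.264, 0 and 0.302 CPM in NM (log2(FC) 9.24, SE 1.02, adjusted p = 0.00156). PP2-B13, a phloem protein gene, had 357, 722 and 767 CPM in NF and 3.81, 0.743 and 1.68 CPM in NM (log2(FC) 8.80, SE 1.46, adjusted p = 0.00417). Its neighbour PP2-B14 had 257, 490 and 507 CPM in NF and 2.04, 0.325 and 1.25 CPM in NM (log2(FC) 8.98, SE 1.59, adjusted p = 0.00537), and reads may have been shared between these copies. AT5G56960, a bHLH factor, rose by 8.76 (SE 1.16, adjusted p = 0.0023), and AT4G16820 (DALL1), a lipase-like hydrolase with 3 NM counts, had a ratio of 432 (148 to 2095).

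Falls were smaller and more often seen only within pairs. AT5G11070, an uncharacterized protein, had 10.5, 6.65 and 8.66 CPM in NF, against 30.4, 70.7 and 46.8 CPM in NM (log2(FC) -2.43, SE 0.38, adjusted p = 0.00344). AT1G66180, an aspartyl protease, had 72.3, 82.6 and 116 CPM in NF and 258, 550 and 587 CPM in NM (log2(FC) -2.38, SE 0.45, adjusted p = 0.00747). In both, the groups were well apart. AT4G13540 (log2(FC) -2.94, SE 0.45), AT4G26288 (-2.15, SE 0.52) and the homeobox gene HB-12, a stress-responsive growth regulator (-2.08, SE 0.40), fell in every pair, but their groups overlapped. Without the block their adjusted p was 0.0817, 0.327 and 0.158. HB-12 had 2.43, 6.96 and 2.31 CPM in NF and 5.47, 40.5 and 13.1 CPM in NM. AT3G19850, an NPH3 family protein, and AT5G26200, a mitochondrial carrier, fell by 2.20 and 2.17 on the log2 scale, to 2.21 to 5.63 CPM and 1.56 to 3.97 CPM in NF.

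B-box zinc finger proteins, which include regulators of light responses and flowering, included several that fell. Of 25 tested, 6 were downregulated (24%, against 2.45% of all genes) and 1 was upregulated, with a median log2(FC) of -0.56. BBX14 had 33.9, 25.9 and 11.4 CPM in NF, against 72.0, 142 and 80.6 CPM in NM (log2(FC) -2.04, SE 0.54, adjusted p = 0.0353, and 0.0615 without the block). BBX14 was also not called without NF replicate 2 or 3, or without any of the NM samples in turn. COL2 had 2.26, 11.2 and 9.69 CPM in NF and 10.7, 53.6 and 26.2 CPM in NM (log2(FC) -1.94, SE 0.28, adjusted p = 0.00274). The COL2 groups overlapped, and its adjusted p was 0.155 without the block. BBX32 ran against its family, with 9.13, 8.76 and 20.9 CPM in NF, against 0.453, 1.02 and 0.819 CPM in NM (log2(FC) 4.02, SE 0.60, adjusted p = 0.00289). The number downregulated was 1 without the block, 3 without NF replicate 2 and 12 with scaling by library size alone.

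Type-A response regulators, which are induced by cytokinin and dampen its signal, were downregulated in 3 of 9 cases (33.3%, against 2.45% of all genes). ARR4 had 52.1, 65.9 and 40.9 CPM in NF and 77.5, 129 and 76.1 CPM in NM (log2(FC) -0.81, SE 0.17, adjusted p = 0.0114). ARR6 and ARR9 fell by 1.05 (SE 0.20) and 1.15 (SE 0.24) on the log2 scale. None of these 3 was called without the block, where the adjusted p was 0.072 for ARR4, 0.125 for ARR6 and 0.0769 for ARR9. Of 11 growth-promoting or antagonistic bHLH factors, only BEE2, a brassinosteroid-responsive factor, was called (log2(FC) -0.95, adjusted p = 0.0347, and 0.156 without the block), and DESeq2 on all samples with the block called 4. HBI1, a growth factor that inhibits PTI, had 29.6, 8.25 and 5.85 CPM in NF, against 50.2, 34.4 and 29.5 CPM in NM, overlapping groups that did not pass (log2(FC) -1.57, SE 0.56, adjusted p = 0.107).

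Few cell wall loosening genes were called. Xyloglucan endotransglucosylase/hydrolases, which remodel xyloglucan, had 4 upregulated and 1 downregulated member of 29 tested, a share of 13.8% upregulated, against 9.08% of all genes, and a median log2(FC) of -0.02. XTH18 had 439, 884 and 841 CPM in NF and 28.5, 8.87 and 16.3 CPM in NM (log2(FC) 5.57, SE 0.83, adjusted p = 0.00288). XTH19, its tandem neighbour, and XTR6 rose by 3.26 (SE 0.58, adjusted p = 0.00547, and 0.217 without the block) and 2.48 (SE 0.48, adjusted p = 0.00818). EXGT-A3 fell, with 51.3, 89.997 and 112 CPM in NF, against 134, 348 and 272 CPM in NM (log2(FC) -1.55, SE 0.31, adjusted p = 0.00989). Among 18 expansins tested, 0 were called by edgeR, 3 had an unadjusted p under 0.05 and DESeq2 on all samples with the block called 1, at a median log2(FC) of 0.10.

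Few or no members were called in the remaining groups. Of 45 photosystem and antenna genes, 0 were called by edgeR or by DESeq2 on all samples with the block, 1 had an unadjusted p under 0.05, and the median log2(FC) was -0.01. For 27 heat shock proteins and chaperones, both counts were 0, as was the number with an unadjusted p under 0.05, at a median of -0.04. Of 11 clock genes, edgeR called 0, DESeq2 with the block called 1, and 3 had an unadjusted p under 0.05. Their median log2(FC) was -0.40, against -0.02 over all genes, and 9 had a negative value. Over all 20074 tested genes, 5131 had an unadjusted p under 0.05 in edgeR and 10578 had a negative log2(FC). The 4 reference genes for RT-qPCR had log2(FC) values between -0.13 and 0.07. Hypoxia-responsive genes were included because the series also applied hypoxia. Of 13 core hypoxia genes, 2 were upregulated, a share of 15.4%, against 9.08% of all genes. A positive log2(FC) was seen in 11 of the 13, against 9496 of all 20074 genes, and the median was 0.87. LBD41, a hypoxia-responsive LOB-domain factor, had 37.8, 155 and 52.7 CPM in NF and 21.6, 20.8 and 12.7 CPM in NM (log2(FC) 2.03, SE 0.54, adjusted p = 0.0369). It was not called when HF replicate 3, NF replicate 2 or 3, or any of the NM samples was left out. AlaAT1, an alanine aminotransferase, rose by 1.33 (SE 0.31, adjusted p = 0.0191), but was not called without NF replicate 2 or 3, or without NM replicate 1 or 2. ADH1, the alcohol dehydrogenase of fermentation, had 7.49, 12.4 and 11.2 CPM in NF, against 9.05, 7.94 and 15.3 CPM in NM (log2(FC) -0.07, adjusted p = 0.964). PDC1 (AT4G33070), PCO1 (AT5G15120) and HRA1 (AT3G10040) did not pass either, with a log2(FC) of 0.87 (SE 0.76), 0.75 (SE 0.47) and 0.87 (SE 0.75).

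**Figure D5:**
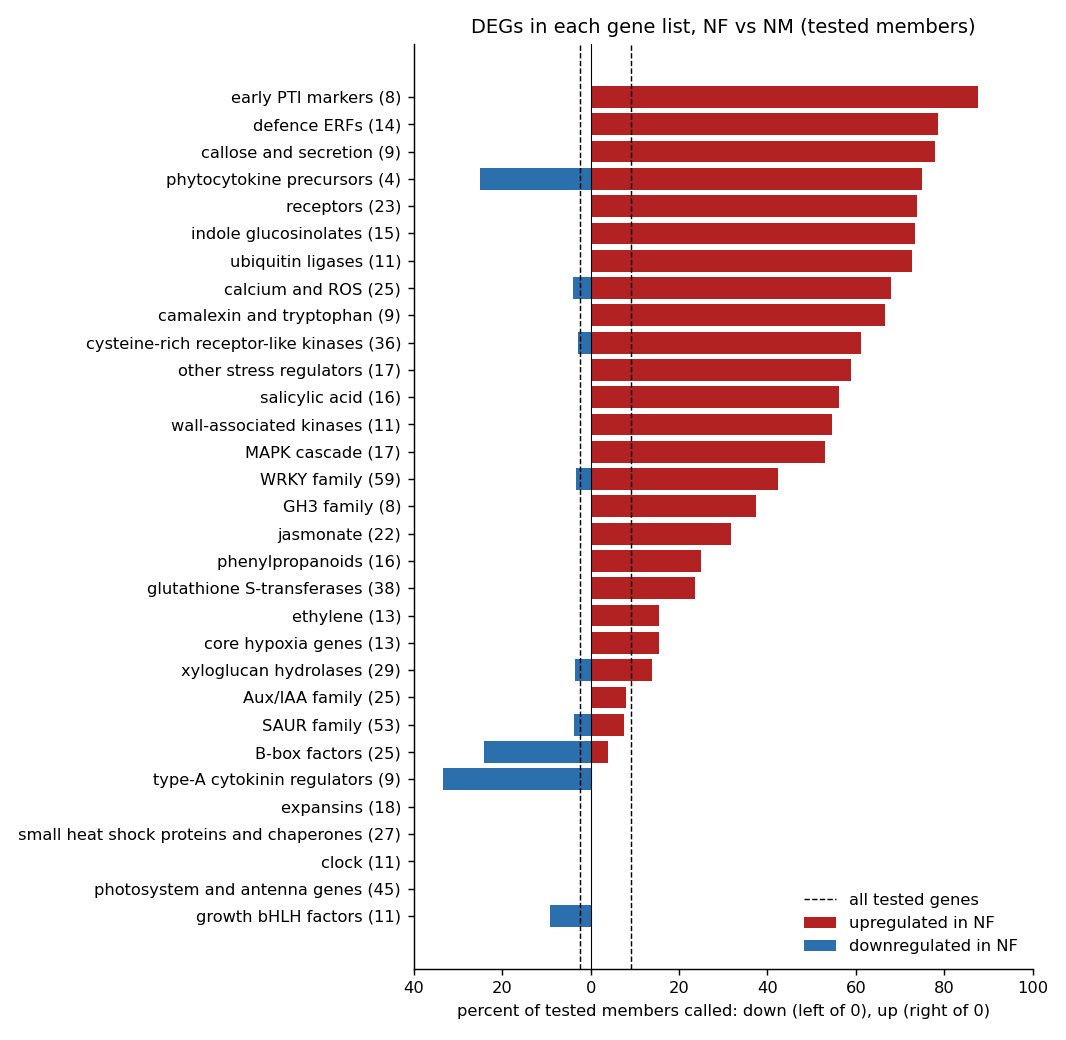
Percent of the tested members of each gene list that were upregulated (red, right of 0) or downregulated (blue, left of 0) in NF vs NM, with the number tested in brackets. Dashed lines mark the shares of all tested genes, 9.08% up and 2.45% down. Early PTI markers reach 87.5% up and type-A cytokinin regulators 33.3% down.

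The same genes were read in the hypoxia samples, which are separate from NF and NM but entered the same fit and its estimate of the spread. Of the 1823 upregulated DEGs, 1816 had a positive log2(FC) in HF vs HM, against 48.7% of all tested genes, and their median was 1.49 there and 1.97 in NF vs NM. Of the 492 downregulated DEGs, 488 had a negative value, with a median of -0.79 in HF vs HM. These genes were chosen by their size in NF vs NM, which on its own favours larger values there. When the difference between the 2 responses was tested, edgeR called 0 of 20074 genes at an adjusted p under 0.05. An unadjusted p under 0.05 was seen for 498, fewer than that threshold would pass if no gene differed. This test was read only from the edgeR fit that included HF replicate 3. With 3 samples per group, the lack of calls does not show that the 2 responses were equal. For WRKY33 the log2(FC) was 2.76 (SE 0.72) in HF vs HM and 4.73 (SE 0.75) in NF vs NM, a difference of 1.96 (SE 0.93) that did not pass. NHL10 had 4.62 (SE 0.35) in HF vs HM and 4.28 (SE 0.34) in NF vs NM.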

How the data were processed

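RNA from whole seedlings was sequenced as paired-end reads. The authors deposited estimated counts per gene for 23396 genes, of which 2.301% of values were not whole, and these were rounded. The submitters' notes name HISAT, DESeq2 and the build TAIR10, whereas the counting tool, its annotation and the use of strand are not given in the sources used here, so that reads of overlapping, antisense or near-identical genes may have been shared. The group means in the same table were not used. All 23396 gene identifiers were matched to RefSeq. The total count per sample was between 21307650 and 21554050.

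All 12 samples were fitted with edgeR 4.0.16 (quasi-likelihood test, R 4.3.3, TMM normalization, limma 3.58.1) with 4 group means and the replicate number as a block. Genes were kept by edgeR's expression filter with a minimum count of 10. P-values were adjusted by the Benjamini-Hochberg method over 20074 genes. DEGs had an adjusted p under 0.05 and a log2(FC) beyond 0.585 in either direction. Each SE is the absolute log2(FC) divided by the square root of the quasi-likelihood F statistic. It was not estimated separately from the test. Deviations from the group means correlated between NF and NM samples of the same number (r from 0.31 to 0.77 over 3 pairs), so the numbers were taken to pair the samples, although NF replicate 3 correlated more with NM replicate 2 (0.43) than with NM replicate 3 (0.31). HF replicate 3 did not go with its number (r from -0.11 to -0.01), and the fit was therefore also made without it. CPM values use TMM-scaled library sizes. No library repeated another of its own group (lowest chi-square per degree of freedom 29.0). Libraries of different groups were not compared in this way. Whether the replicates came from separate sowings is not given in the sources used here, so p-values measure the spread between these samples.

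The genes named were a fixed set of PTI and hypoxia genes, the 10 DEGs that rose most and the 10 that fell most with a mean of at least 5 CPM, and up to 3 DEGs per list that changed alike in all 3 pairs. Other list members stand as examples of roles. The lists and this rule were chosen with earlier results of these data known. Of 306 list entries, 15 were left out, 14 of them because the annotation does not hold their symbol. Some genes were counted in more than 1 list. Among them were CBP60G and SARD1 (other stress regulators and salicylic acid), CYP81F2 (early PTI markers and indole glucosinolates) and PBS3 (salicylic acid and GH3). Alternatives were other fits, filters, scalings, DESeq2 1.42.0 and leaving out each sample. Promoters came from RefSeq TAIR10.1 and were searched for 20070 of the 20074 genes.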

Additional observations from a re-analysis of the deposited data

How the results depend on the processing

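The number of downregulated DEGs was the value most open to the processing. Without the replicate block it was 128, against 492 with it, and on the 6 NF and NM samples without the block there were 1026 upregulated and 69 downregulated DEGs. DESeq2 on all samples with the block gave 802 downregulated DEGs and scaling by library size alone gave 1334. With each NF or NM sample left out in turn, the upregulated number was between 1210 and 1881 and the downregulated number between 86 and 501. Without HF replicate 3 they were 1715 and 596. All 1291 DEGs upregulated and all 128 downregulated without the block were also called with it. Of 97 named DEGs, 66 were called under each of 17 alternatives in which they were tested, 22 lost their call without the replicate block and 0 reversed. Of the genes not called, ADH1 had a log2(FC) of 0.17 without NF replicate 1 and 0.43 without NM replicate 3 (range -0.36 to 0.43 over the samples left out), and HRA1 (AT3G10040) of -0.042 without NF replicate 2 (range -0.042 to 1.52). Depth limits genes near silence in NM, where a fold rests on 0 to 3 counts.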
